A study of Mus musculus with 3 samples.

Results

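The levels of 5-hydroxymethylcytosine (5hmC) that ACE-seq and DDD-seq gave in mouse cerebellum were compared bin by bin along the autosomes. The compared set held every autosomal 10 kb bin of the deposited table that had a value in both the ACE-seq library and the DDD-seq control library. It came to 239306 of the 239486 autosomal bins and of the 264399 bins in all. Of the 180 autosomal bins left out, 53 lacked a value in ACE-seq only, 81 in DDD-seq only and 46 in both. The series holds 3 libraries of genomic DNA from mouse cerebellum. The ACE-seq library and the DDD-seq control library both carry the treatment label normal/control, and the third is a DDD-seq library of chronic sleep deprivation. Each method is represented here by 1 library. The strain, age, sex and number of the animals behind it are not stated in the labels. The name of the DDD-seq control column contains the word all, so it may hold a pool of runs or animals.

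5hmC is made from 5-methylcytosine by the TET enzymes. It is an intermediate of demethylation and also a lasting mark, and the brain holds more of it than most tissues. In neurons it lies mostly in the bodies of expressed genes and is low at CpG-rich start sites. The cerebellum is made up largely of granule cells, small excitatory neurons, whose axons drive the inhibitory Purkinje cells. Both methods attach a glucose to 5hmC, which shields it, and then use an enzyme to deaminate the other cytosines, so that what still reads as cytosine is counted as 5hmC. ACE-seq uses an APOBEC deaminase on single-stranded DNA. The labels name 1 deaminase, SsdAcat, for all libraries, ACE-seq included, and do not describe the step that set the ACE-seq library apart. In bulk tissue, a higher share of cells with 5hmC at a place and a higher level per cell cannot be told apart. Unmodified or methylated cytosines that the deaminase left untouched count as 5hmC in these values.

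The ACE-seq library read slightly lower than the DDD-seq control, on average over all bins and on each autosome. The level of a bin is the deposited fraction expressed as a percent, and differences are ACE-seq minus DDD-seq in percentage points. The mean level was 1.52% in ACE-seq and 1.56% in DDD-seq. The mean difference was -0.044 points, with a median of -0.043, and the ACE-seq mean was 0.972 of the DDD-seq mean. ACE-seq was the lower library on 19 of 19 autosomes, where the mean difference had an SD of 0.008 over autosomes. It ran from -0.062 on chromosome 16 to -0.035 on chromosome 17. Within single bins the scatter was far larger than this offset. The middle 50% of bins lay between -0.41 and 0.32 points, and ACE-seq was the lower library in 53.3% of bins. A difference of at least 1 point, the size used below to call a bin different, was met by 25984 bins, or 10.9%. ACE-seq was higher in 4.80% of bins by that size and lower in 6.06%. Spearman's rho across bins was 0.490 and Pearson's r was 0.595, given as descriptions, since neighbouring bins are not independent. With 1 library a side there is no replicate error and no test, so every value compares 2 libraries and not the methods at large. Autosomes are parts of the same 2 libraries and are not replicates.

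The DDD-seq library from sleep-deprived mice gives a yardstick for the scatter, although it shares its control library with the main comparison and differs from it in treatment. Against the DDD-seq control, 8.99% of bins differed by at least 1 point. The share was 9.59% between ACE-seq and the sleep-deprived library. The 3 pairs of libraries thus lay within 2 percentage points of one another in this share, and the pair with a shared method and different treatment had the lowest.

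The scatter between the methods shrank as bins were averaged, while the offset stayed. Over bins of up to 10% in both libraries, the SD of the difference in 10 kb bins was 0.656 points. It was 0.207 points over 100 kb and 0.066 over 1 Mb. The SD multiplied by the root of the number of bins stayed between 0.653 and 0.664 at all 7 window sizes. Over all bins, Spearman's rho between the libraries was 0.490 for bins, 0.814 for 100 kb windows and 0.957 for 1 Mb windows. ACE-seq was the lower library in 59.9% of 100 kb windows and in 77.3% of the 2388 windows of 1 Mb. The difference in a bin was unrelated to that in the next bin. Spearman's rho between neighbouring bins was 0.001 for the difference, against 0.302 for the ACE-seq level and 0.312 for the DDD-seq level. Neighbouring differences had the same sign in 50.2% of pairs. Inside genes over 300 kb, where levels of neighbouring bins were more alike (rho 0.456 in ACE-seq and 0.460 in DDD-seq), that of the difference was also 0.001.

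**Figure D1:**
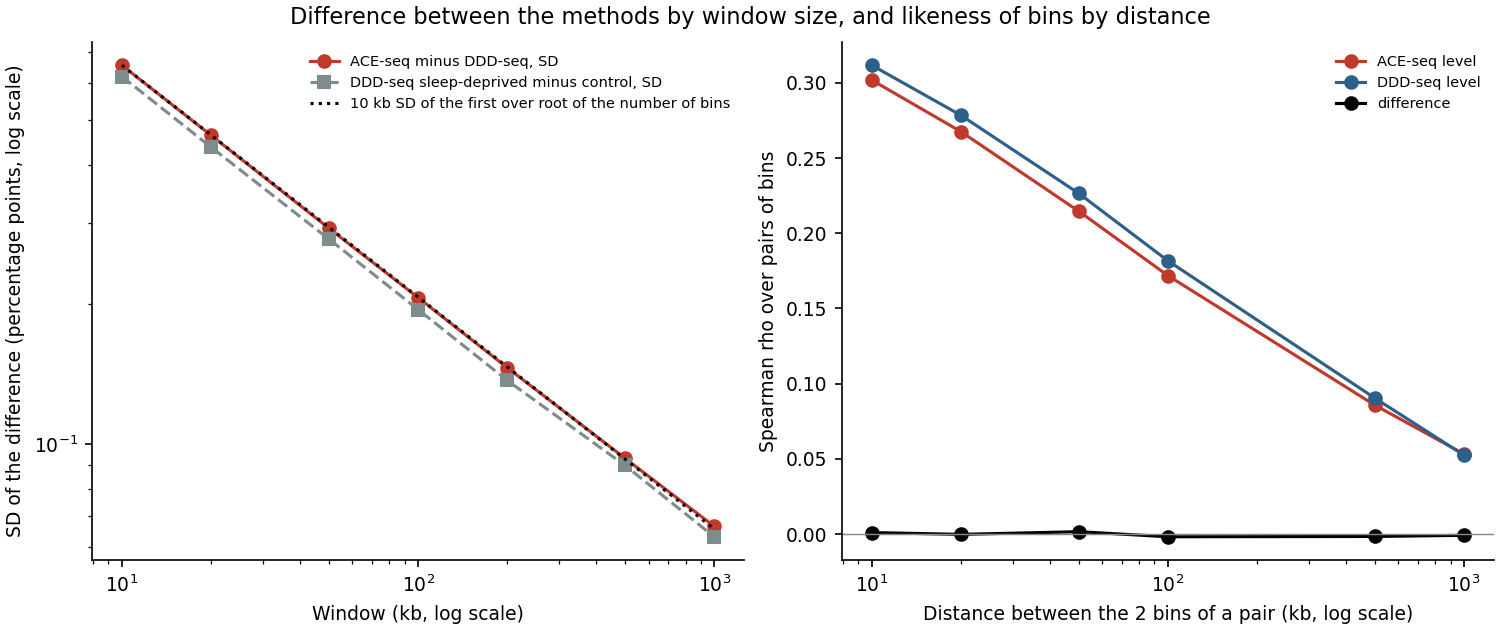
The left panel plots the SD of the difference between libraries (percentage points, log scale) against window size (kb, log scale) over bins of up to 10%; the dotted line divides the 10 kb SD by the root of the number of bins. The right panel plots Spearman's rho over pairs of bins against their distance (kb, log scale), which falls from 0.302 and 0.312 for the levels and stays near 0 for the difference.

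Bins in gene-poor regions differed by at least 1 point more often than bins in gene-rich ones, while the offset was similar in all density classes. Density was counted as the number of protein-coding genes with their midpoint within 500 kb of the bin's. The share past 1 point was 17.1% with 0 to 2 such genes, 10.5% with 3 to 5, 7.82% with 6 to 10, 6.81% with 11 to 20 and 5.59% with over 20. Against the genome-wide 10.9%, the gene-poorest class was therefore above the background and the 3 densest classes were below it. The mean difference was between -0.049 and -0.041 points in these 5 classes, and ACE-seq was lower on 19 of 19 autosomes in each. The share past 1 point fell in the same order between the DDD-seq libraries of sleep-deprived and control mice, from 15.0% to 4.29%. Among intergenic bins the share was 16.5% in the gene-poorest class, 6.78% with 11 to 20 genes and 7.02% with over 20. The ACE-seq level of these bins fell as well, from 1.41% to 1.14%. Within genes of 100 to 1000 kb the share past 1 point fell from 17.99% to 7.55%.

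Long genes carried more 5hmC in both libraries and differed more often between them. Bins were classed by the longest protein-coding gene they overlapped. From genes under 10 kb to genes over 1000 kb, the mean level rose from 1.18% to 2.08% in ACE-seq and from 1.21% to 2.14% in DDD-seq. The share past 1 point was lowest, 4.12%, in genes of 10 to 30 kb. It was 7.15% in genes under 10 kb, 14.2% in genes of 300 to 1000 kb and 20.3% in genes over 1000 kb. Spearman's rho was 0.307 under 10 kb, 0.663 from 100 to 300 kb, 0.668 from 300 to 1000 kb and 0.629 over 1000 kb. The mean difference lay between -0.061 and -0.032 points in all 6 length classes. Of the 23199 bins in genes of 300 to 1000 kb, 16987 had at most 5 genes within 500 kb. Among bins with at most 5 such genes the share past 1 point still rose with length, from 7.19% to 20.7%. In genes over 100 kb, 4.86% of the bins at an edge of the gene and 13.2% of those wholly inside it were past 1 point.

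Genic and intergenic bins differed by the same amount in both libraries. Genic bins averaged 1.71% in ACE-seq and 1.76% in DDD-seq, and intergenic bins 1.34% and 1.39%. The genic excess was 0.372 points in ACE-seq and 0.376 in DDD-seq. With distance from the nearest gene, the share past 1 point rose from 7.21% under 10 kb to 11.8% at 100 to 250 kb and 20.3% over 1000 kb. Spearman's rho was 0.338 under 10 kb and 0.285 over 1000 kb. The mean difference was negative in all 7 distance classes, from -0.049 to -0.029 points, with no order by distance. By the number of genes a bin overlapped, the share was 11.8% with no gene, 10.2% with 1, 3.46% with 2, 2.17% with 3 and 5.13% with 4 or more. Between the 2 DDD-seq libraries the share also rose with distance, from 5.52% under 10 kb to 19.3% over 1000 kb.

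**Figure D2:**
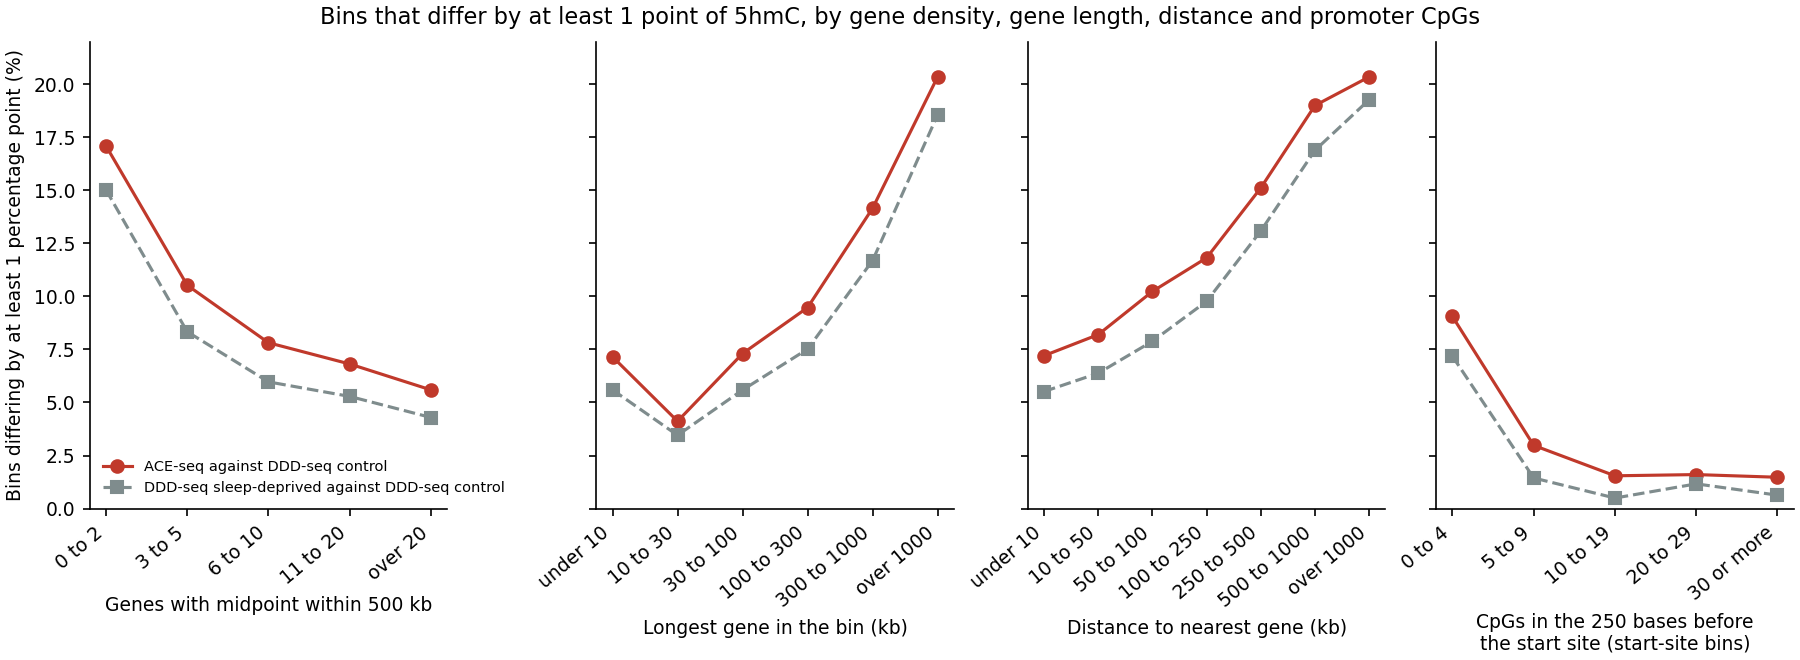
Each panel plots the percent of bins that differ by at least 1 percentage point (vertical axis) by gene density, by the longest gene in the bin, by distance to the nearest gene and, for start-site bins, by CpGs before the start site. Circles compare ACE-seq with the DDD-seq control and squares compare the 2 DDD-seq libraries, and both series fall from gene-poor to gene-rich bins, here from 17.1% to 5.59% for the circles.

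Of the classes examined, bins that hold the start site of a CpG-rich promoter had the smallest share of large differences. CpG is the cytosine-guanine step that carries most methylation in mammals, and CpG-rich promoters are mostly unmethylated. CpGs were counted in the 250 bases before the annotated start of each gene, from RefSeq sequence of GRCm38.p6. The motif CG reads the same on both strands, and 92.6% of the 17491 promoters with sequence held at least 1. In 13727 autosomal bins with the start of 1 gene of this set only, the share past 1 point was 9.05% with 0 to 4 CpGs, 2.98% with 5 to 9, 1.55% with 10 to 19, 1.60% with 20 to 29 and 1.48% with 30 or more. Spearman's rho rose in the same order from 0.324 to 0.641. The mean level rose from 1.24% to 1.47% in ACE-seq and from 1.255% to 1.48% in DDD-seq. The bins at 0 in one library only numbered 117 of 4948 in the CpG-poorest class and 0 of 948 in the CpG-richest. The mean difference was between -0.019 and 0.000 points in these 5 classes, smaller than the -0.044 points of all bins. ACE-seq was the lower library on 9 to 14 of 18 autosomes. The promoter set was incomplete, with 16456 autosomal promoters against 20661 autosomal protein-coding genes. Each class had bins on 18 of the 19 autosomes only, a gap in the set that was not examined. The median difference was between -0.034 and -0.023 points. The sleep-deprived library was lower than the DDD-seq control in these classes too, by means between -0.037 and -0.004 points. CpG number was counted in the promoter and not in the whole bin, and how many cytosines were read in a bin is not given in the table.

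The 4 promoters below show high and low values of this count, which were ranked for part of the genes named in this text. Among the ranked genes, Slc4a4 and Ptprk held the most CpGs and Abcb1a the fewest. Mup-ps12 was tied with Emcn and Lct for the next fewest and had the lowest GC content of these. They are printed 5′ to 3′ on the strand of the gene, up to the base before the start, with each CpG in capitals.
Slc4a4: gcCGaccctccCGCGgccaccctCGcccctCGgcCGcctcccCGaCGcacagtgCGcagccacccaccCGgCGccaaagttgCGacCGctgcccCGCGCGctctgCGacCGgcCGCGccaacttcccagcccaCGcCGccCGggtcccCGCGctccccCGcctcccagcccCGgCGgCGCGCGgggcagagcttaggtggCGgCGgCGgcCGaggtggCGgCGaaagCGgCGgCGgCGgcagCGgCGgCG
Ptprk: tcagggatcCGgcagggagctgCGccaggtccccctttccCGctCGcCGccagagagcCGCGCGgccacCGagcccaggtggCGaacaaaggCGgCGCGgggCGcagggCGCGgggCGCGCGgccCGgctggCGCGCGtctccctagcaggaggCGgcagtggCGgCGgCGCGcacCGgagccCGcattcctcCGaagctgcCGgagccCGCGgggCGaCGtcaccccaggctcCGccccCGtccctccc
Abcb1a: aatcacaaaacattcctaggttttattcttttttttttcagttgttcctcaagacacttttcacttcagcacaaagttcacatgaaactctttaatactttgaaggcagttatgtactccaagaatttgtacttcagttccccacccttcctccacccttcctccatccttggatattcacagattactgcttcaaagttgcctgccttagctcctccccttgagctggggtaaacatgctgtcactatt
Mup-ps12: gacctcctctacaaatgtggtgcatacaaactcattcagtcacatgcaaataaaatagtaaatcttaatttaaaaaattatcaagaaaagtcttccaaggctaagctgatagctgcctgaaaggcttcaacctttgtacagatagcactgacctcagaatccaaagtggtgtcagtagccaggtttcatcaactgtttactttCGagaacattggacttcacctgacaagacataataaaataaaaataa

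Slc4a4 encodes a sodium bicarbonate cotransporter of astrocytes and Bergmann glia, and its 250 bases (chr5:88887010-88887259) held 44 CpGs. In the gene annotation the bins of Slc4a4 began at chr5:88790001, so the start used for this promoter lay inside the annotated gene. The bin of that start read 2.25% in ACE-seq and 2.47% in DDD-seq. Ptprk encodes a receptor tyrosine phosphatase, and its window (chr10:28074570-28074819) held 38 CpGs. The start-site bin read 1.29% and 1.32%. Both CpG-rich bins thus differed by under 0.25 points. Abcb1a encodes a drug transporter of the blood-brain barrier and had 0 CpGs in its window (chr5:8566841-8567090). Its start-site bin read 3.33% in ACE-seq and 1.69% in DDD-seq, and 2.65% in the sleep-deprived library. Mup-ps12, of the major urinary protein cluster, had 1 CpG (chr4:61440339-61440588), and its bin read 2.15% in ACE-seq and 0.79% in DDD-seq. Both CpG-poor bins were past 1 point, with ACE-seq higher, whereas 9.05% of the bins of their class were past it in either direction. Both genes are named in this text for a large difference. The start-site bins of Emcn and Lct, with 1 CpG each, were lower in ACE-seq, with differences of -0.60 and -0.255 points.

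The profile of 5hmC along genes was nearly the same in both libraries apart from the offset. It was taken over 785 genes of at least 20 bins with a known strand, in 3 classes of equal size set by the level in the sleep-deprived library. In the upper class, of 262 genes, the level was 1.73% in ACE-seq and 1.74% in DDD-seq in the bin before the start. It then rose to 3.15% and 3.21% in the first ninth of the body and declined to 2.30% and 2.36% in the last. It was 1.98% and 2.03% in the end bin and 1.67% and 1.71% in the bin after it. Of the 31 positions along the upper class ACE-seq was the higher library in 1, the start bin, at 1.89% against 1.80%. The difference was 0.092 points, and the SEs over genes of the 2 levels were 0.047 and 0.045. Both levels come from the same genes, so these SEs do not measure the spread of the paired difference, which was not computed. In the middle class the start bins read 1.51% and 1.53%, and in the lower class 1.29% and 1.30%, with ACE-seq lower in both. These classes also had 1 position each with ACE-seq higher, 30 kb after the end bin and 60 kb before the start bin.

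**Figure D3:**
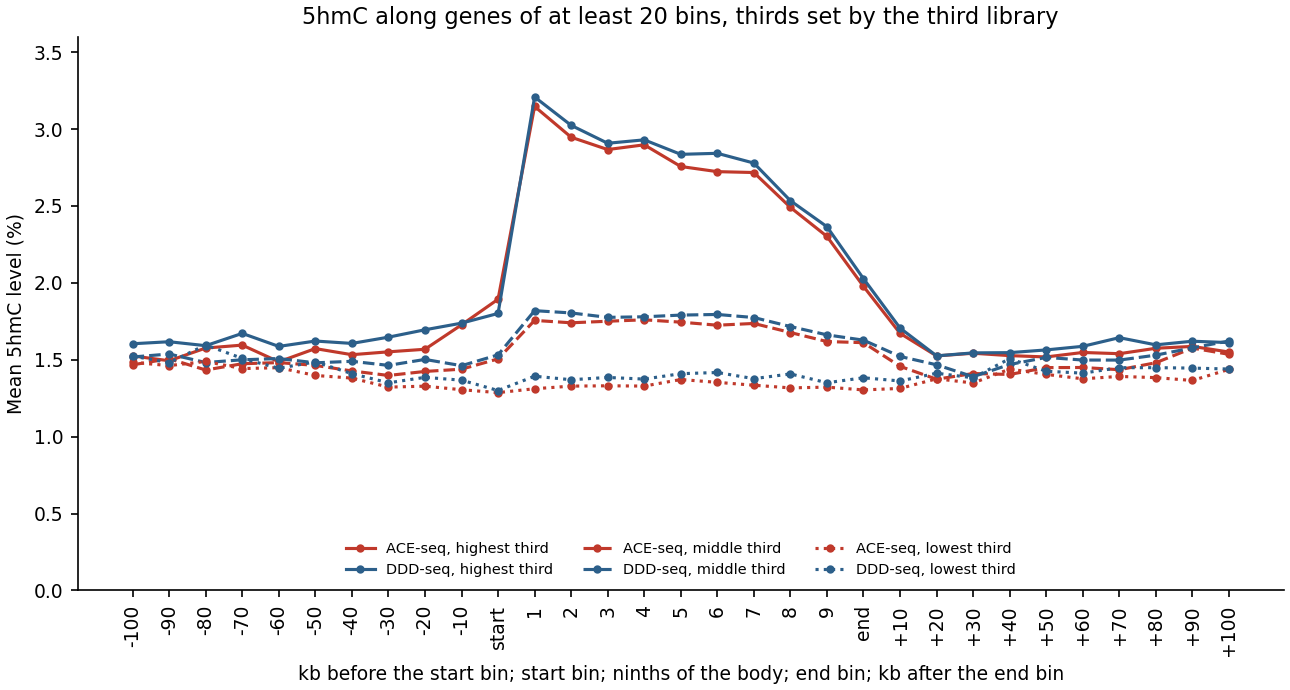
The mean 5hmC level (%, vertical axis) is plotted from 100 kb before the start bin, through 9 equal parts of the gene body, to 100 kb after the end bin, for ACE-seq and DDD-seq in 3 classes of genes. The lines of both libraries run together, and in the upper class ACE-seq lies above DDD-seq in the start bin, at 1.89% against 1.80%.

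Gene bodies agreed closely, and more so the more bins they held. A gene-body level is the mean over the bins that a protein-coding gene overlaps, and its SE is taken over those bins. Of 2790 genes of at least 10 bins, 1825 were lower in ACE-seq and 965 were higher, with a median difference of -0.050 points. Pearson's r across genes was 0.976 and Spearman's rho was 0.948. Genes are not independent replicates. By at least 0.25 points, 7.60% of these genes were lower in ACE-seq and 3.37% were higher. The SD of the difference was 0.424 points in genes of 5 to 9 bins, 0.173 from 10 to 19, 0.129 from 20 to 49, 0.078 from 50 to 99 and 0.069 in the 55 genes of 100 bins or more. Of those 55 genes, 44 were lower in ACE-seq and none passed 0.25 points. Over classes of genes by level, the offset did not grow with the level throughout. In the 4 classes of up to 3% (classed by the sleep-deprived library), the mean difference was between -0.062 and -0.032 points. The ratio of means was between 0.967 and 0.974 there. In the 217 genes above 3% the difference was -0.026 points and the ratio 0.993. These are class means and do not describe single genes. Whether the offset was proportional to the level or constant was not tested.

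The genes with the largest differences in favour of DDD-seq had 10 to 19 bins each. Ercc6l2, which encodes a DNA repair helicase, averaged 1.46% in ACE-seq and 2.20% in DDD-seq over 10 bins. Its difference was -0.74 ± 0.22 points (SE over bins), with ACE-seq lower in 8 of the 10. Its bins ran from 1.10% to 2.40% in ACE-seq and from 1.17% to 3.45% in DDD-seq, so the ranges overlapped. Epha7, an ephrin receptor of axon guidance, averaged 2.75% and 3.37% over 16 bins, and ACE-seq was lower in 14 of them. Lin7a, a scaffold protein of synapses, averaged 4.79% and 5.41%. Pcdh17, a protocadherin of cell adhesion, averaged 1.996% and 2.56%, with ACE-seq lower in 9 of 10 bins. Ptpn4, a protein tyrosine phosphatase, averaged 2.50% and 3.06% over 19 bins. Cnot6l, a deadenylase of the CCR4-NOT complex, averaged 3.57% and 4.14%. The others of the 10 genes lowest in ACE-seq were Zfp280d, Pkn2, Glg1 and Pcm1, with differences from -0.70 to -0.54 points.

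In the other direction, the 10 genes highest in ACE-seq had 10 to 23 bins each. Gabrb2, a GABA-A receptor subunit, had the highest ACE-seq level named here. It averaged 6.94% in ACE-seq and 6.26% in DDD-seq over 23 bins, a difference of 0.68 ± 0.41 points, with ACE-seq higher in 16 of them. Its bins ran from 1.62% to 12.2% in ACE-seq and from 1.46% to 12.9% in DDD-seq. The sleep-deprived DDD-seq library read 7.03% there, closer to ACE-seq than to its own method's control. Gria2, a subunit of AMPA glutamate receptors, showed the same order, with 4.62% in ACE-seq, 4.07% in DDD-seq and 5.08% in the sleep-deprived library. Map2k4, a kinase of the stress-activated JNK pathway, averaged 3.56% and 2.86%. Fbxw11, a substrate receptor of a ubiquitin ligase, averaged 3.61% and 2.97%, with ACE-seq lower in 1 of 11 bins. Mef2a, a transcription factor of muscle and neurons, averaged 4.11% and 3.53%. Mup-ps12 stood apart by its low level, 1.21% and 0.67%. The others of the 10 genes highest in ACE-seq were Man1a2, Phf14, Pcmtd1 and Cnot4, with differences from 0.55 to 0.67 points. These 20 genes were picked for their difference, so their values are a description.

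**Figure D4:**
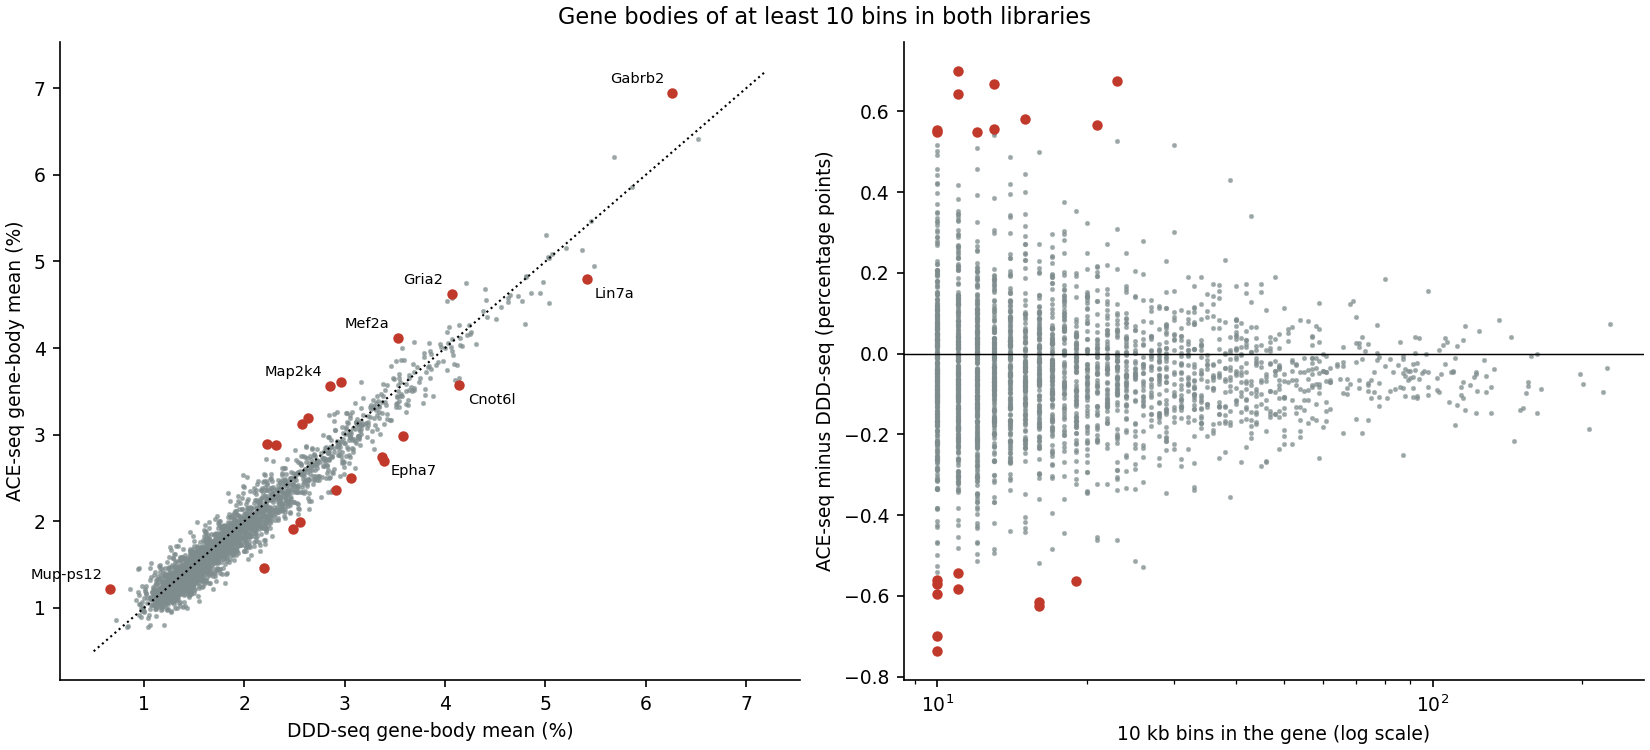
The left panel plots the gene-body mean in ACE-seq against that in DDD-seq (both in %) for genes of at least 10 bins, with the line of equality dotted; the right panel plots the difference (percentage points) against the number of bins (log scale). Larger marks are the 10 genes with the largest difference in each direction, all of 10 to 23 bins, and the spread narrows from an SD of 0.173 points at 10 to 19 bins to 0.069 at 100 bins or more.

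Genes of cerebellar cell types and of synapses read much alike in both libraries. Members of at least 5 bins were counted, and among all 6382 such genes 12.1% were lower in ACE-seq by at least 0.25 points and 5.56% were higher. By any amount, 61.3% of them were lower. The 9 granule cell genes had a median level of 2.60% in ACE-seq and 2.66% in DDD-seq, and 0 passed 0.25 points. Etv1, a transcription factor of mature granule cells, was the highest, at 6.42% and 6.52%. Grm4, a presynaptic glutamate receptor, was the lowest, at 1.62% and 1.59%. Kcnd2, a potassium channel subunit, had the largest difference, with 5.14% and 5.36%. The 6 genes of other tissues had medians of 1.20% and 1.24%, so the list of the most common cell of the labelled tissue lay above them in both libraries. A 5hmC level is not expression. Among them Rp1, a photoreceptor gene, read 1.05% and 0.97%, and Lct, the intestinal lactase, 1.22% and 1.37%.

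Of 14 Purkinje cell genes, 12 were lower in ACE-seq, with 1 past 0.25 points in each direction. Car8, a carbonic anhydrase-related protein, read 1.22% in ACE-seq and 0.87% in DDD-seq, and Skor2, a transcriptional corepressor, 0.96% and 1.35%. The 11 interneuron genes had medians of 1.30% and 1.42%, and 0 passed 0.25 points. Ptprk was the highest at 2.28% and 2.35%, and Gad2, a GABA-synthesising enzyme, read 1.18% and 1.004%. Of 5 Bergmann glia and astrocyte genes, Slc4a4 was the highest at 3.45% and 3.57%. Aldh1l1, a folate enzyme of astrocytes, read 0.90% and 1.27% and was the 1 past the threshold. Of 8 oligodendrocyte genes 6 were higher in ACE-seq, with a median difference of 0.004 points. St18 was the highest at 2.42% and 2.41%, Myrf, a myelin transcription factor, read 1.12% in both, and Ugt8a, a myelin lipid enzyme, 1.43% and 1.09%.

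In the 6 microglia and leukocyte genes the median difference was -0.11 points. P2ry12, a purinergic receptor of microglia, read 2.04% in ACE-seq and 1.73% in DDD-seq, and Dock2 1.13% and 1.23%. Itgam, an integrin of myeloid cells, was lower in ACE-seq by 0.28 points and P2ry12 higher by 0.31, and both passed the threshold. For the 11 endothelial genes the median difference was 0.005 points. Emcn was highest at 2.79% and 2.83%, Eng lowest at 1.07% in both and Abcb1a furthest apart at 1.78% and 1.59%. All 3 choroid plexus and ependyma genes were higher in ACE-seq, and 0 passed 0.25 points. Kl read 1.34% and 1.10%, Prlr 1.49% and 1.35% and Clic6 1.26% and 1.13%. These lists were short, and no list's count was read as particular to it.

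Of 20 glutamate receptor genes, 11 were lower and 9 higher in ACE-seq, and Gria2 alone passed 0.25 points. Grik2, a kainate receptor subunit, was the highest at 5.05% and 5.02% over 71 bins, and Grin2d, an NMDA receptor subunit, the lowest at 1.04% and 1.11%. Of 12 GABA receptor genes 3 passed the threshold, 2 of them higher in ACE-seq and 1 lower. The genes higher in ACE-seq were Gabrb2 and Gabrg1, the latter by 0.44 points. Gabrg3 was the lowest at 1.07% and 1.15%, whereas Gabrb2 was the highest. The 29 synaptic adhesion and scaffold genes, long genes for the most part, all stayed under 0.25 points. Shank1, a postsynaptic scaffold, read 1.26% and 1.22%, and Cntn6, a neuronal contactin, 3.25% and 3.02%. Of 10 genes of DNA methylation and demethylation, 2 were lower by at least 0.25 points and 0 were higher. Uhrf2, which binds 5hmC, read 3.02% and 3.30%. Mbd2, a methyl-CpG binding protein, differed by -0.27 points, and Dnmt1, the maintenance methyltransferase, read 1.07% and 1.18%. No housekeeping gene of the lists had 5 bins.

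The share of large differences was lowest near the far end of the chromosomes. Mouse autosomes carry the centromere at the end where numbering starts. With each autosome cut into 10 equal parts from that end, the share past 1 point was between 10.6% and 12.49% in the first 8, then 8.10% in the ninth and 6.70% in the last. Among DDD-seq libraries the last part was also the lowest, at 5.40%. Within the last part the share ran from 11.6% in the gene-poorest class to 3.42% with 11 to 20 genes within 500 kb and 4.45% with over 20. Each of these was below the genome-wide value for its class. At the very ends it differed from the adjoining stretches. In the first 1 Mb of the bins 8.79% were past 1 point, against 12.1% from 1 to 5 Mb, and in the final 1 Mb 14.4%, against 7.66% from 1 to 5 Mb before the end. The mean difference was between -0.051 and -0.034 points in all 10 parts.

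A value of 0 in one library only was found in 1972 bins, or 0.824%. ACE-seq was at 0 and DDD-seq above it in 1049 bins, and DDD-seq was at 0 and ACE-seq above it in 923. In 601 bins both were at 0. Where only ACE-seq was at 0, the DDD-seq level had a median of 1.19%, and where only DDD-seq was at 0, the ACE-seq level had a median of 1.16%. Over all autosomal bins the medians were higher, 1.38% in DDD-seq and 1.35% in ACE-seq. Of these 1-sided zeros, 638 and 549 stood at 1% or more in the other library. The sleep-deprived library was at 0 in 9.91% and 11.2% of them and in 62.7% of the bins at 0 in both. Zeros still coincided between the methods. ACE-seq was at 0 in 39.4% of the bins where DDD-seq was at 0 and in 0.441% of the others. With no coverage in the table, a 0 with few reads and a 0 with many cannot be told apart.

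Zeros in one library lay mostly outside genes, and in like shares for both methods. Of the bins at 0 in ACE-seq only 78.1% were intergenic, of those at 0 in DDD-seq only 78.3%, and of bins at 0 in neither 53.0%. Their share was 0.385% among genic bins and 1.21% among intergenic ones. It was 1.67% in genes under 10 kb and 0.185% in genes of 100 to 300 kb. With distance it was 1.15% under 10 kb, 0.927% at 100 to 250 kb, 1.15% at 250 to 500 kb and 2.29% over 1000 kb. Along the chromosome it was 1.48% in the first part of 10 and 0.296% in the ninth, and in the final 1 Mb it was 2.17%. Most stood alone: 973 runs of zeros in ACE-seq only and 855 in DDD-seq only were 1 bin long. The 24 windows of 1 Mb with the most of them held 355 of the 1972. The longest runs had 3 bins, 4 of them in ACE-seq only and 2 in DDD-seq only. Both of DDD-seq lay outside protein-coding genes, 45.8 kb from Gm3500 on chromosome 14 and 1011 kb from Iftap on chromosome 2. Of the 4 in ACE-seq, 1 overlapped Gm6346 on chromosome 5, 1 lay 58.5 kb from Pramel45 on the same chromosome, 1 overlapped Vmn2r41 on chromosome 7 and 1 overlapped Defa36, a defensin gene, on chromosome 8.

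**Figure D5:**
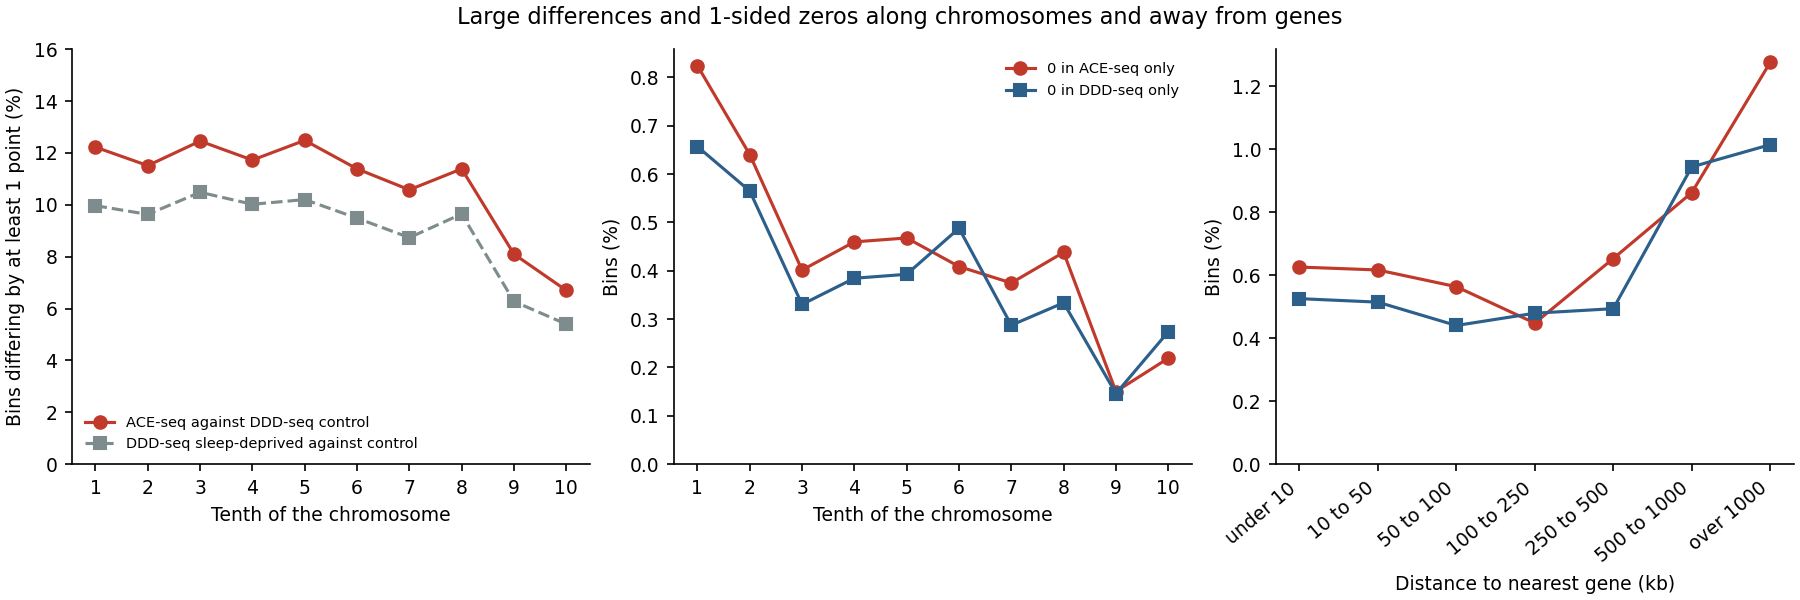
The left panel plots the percent of bins that differ by at least 1 percentage point in 10 equal parts of the chromosome from the centromere end; the middle and right panels plot the percent of bins at 0 in one library only by the same parts and by distance to the nearest gene (kb). Zeros in ACE-seq only and in DDD-seq only follow the same course, and both parts 9 and 10 hold fewer large differences, 8.10% and 6.70%.

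Clustered families of similar genes were common beside these zeros. The gene overlapped or nearest was an olfactory or vomeronasal receptor, a zinc finger gene (Zfp or Zscan) or a predicted gene with a Gm number at 31.6% of the bins at 0 in ACE-seq only and 33.3% of those at 0 in DDD-seq only. It was one of these at 6.72% of the bins at 0 in neither. Vomeronasal receptors, which detect pheromones, had 8.28% of their 676 bins at 0 in one library only and 17.5% past 1 point. Olfactory receptors, which detect odours, had 3.84% of 1250 bins at 0 in one library and 14.9% past 1 point. In both families the level was low, 1.02% and 1.07% in ACE-seq, and rho between the libraries was 0.22 and 0.14. Reads from near-identical copies can be placed on the wrong copy, so values in these clusters are uncertain. Collagens and ribosomal proteins had 0 such bins of 535 and 192, with 5.05% and 3.65% of bins past 1 point. Non-clustered protocadherins, adhesion proteins of neurons with long genes, averaged 2.40% in ACE-seq. They were past 1 point in 23.9% of 318 bins and had no 1-sided zeros, and rho was 0.77. Potassium channels averaged 1.91% in ACE-seq and 2.002% in DDD-seq over 1158 bins.

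The most extreme differences sat mostly at bins with a 0 in one library. Only 96 bins differed by at least 5 points, of which 81 were at 0 in one library, 33 lay on chromosome 14 and 22 on chromosome 7. At 20 points or more there were 11 bins, all at 0 in one library. DDD-seq read 100% and ACE-seq 0% in a bin of Gm2977 (chr14:3540001-3550000) and in one of Gm3488 (chr14:5500001-5510000). ACE-seq read 100% and DDD-seq 0% in bins of Gm4724 (chr2:175470001-175480000) and Zfp973 (chr2:176670001-176680000), near Cphx2 (chr14:26100001-26110000) and between protein-coding genes at chr14:53230001-53240000. Genes and gene segments of other types were not counted for these bins. The sleep-deprived library read 0% or had no value in these 6 bins. Further extremes lay near Scgb2b17, at 33.3% in DDD-seq, and in Ccl21d, a chemokine gene with near-identical copies, at 22.2% in ACE-seq, each with 0% in the other library. The other 12 of the 20 most different bins, 10 in each direction and also with 0% on one side, lay partly in protein-coding genes and partly outside them. Those in a gene lay in Gm5891 (2 bins), Gm10413, Gm2977, Tmem254c, Zfp993 and Vmn1r241. The others had as their nearest protein-coding gene Ndufa4 at 10.4 kb, Vmn1r132 at 12.7 kb, BC048507 at 96.1 kb, Gm36448 at 609 kb and Iftap at 1031 kb. Such bins moved class means. In zinc finger genes the mean difference was 0.076 points and the median was -0.039.

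Among 1 Mb windows with at least 50 bins, 8 of the 10 most different held a bin of this kind. In them the largest single difference was 11.1 points or more, and the median difference was between -0.103 and 0.000 points. The other 2 windows overlapped long neuronal genes, and their largest single differences were -4.04 and -3.24 points. All 10 windows were picked for their difference, so their values are a description. On chromosome 2 (41000001 to 42000000), within Lrp1b, a lipoprotein receptor gene of 2058 kb, ACE-seq averaged 2.14% and DDD-seq 2.42%. The difference was -0.27 ± 0.10 points (SE over 100 bins), with a median of -0.18. On chromosome 12 (90000001 to 91000000), the window overlapped 3 protein-coding genes, the longest being Nrxn3, a presynaptic adhesion gene. Its values are those of the whole window and not of Nrxn3 alone. The means were 3.001% and 3.27%, the difference -0.27 ± 0.10 and the median -0.17. The sleep-deprived library read 2.55% and 3.13% there.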

How the data were processed

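The deposited table gives 1 fraction per library and 10 kb bin, made by the authors and taken as the share of cytosines read as 5hmC; it was multiplied by 100. FastQC, Trimmomatic and Bismark are named in the submitters' processing notes, without versions. How the fraction was averaged, its sequence context and any coverage filter are not given in the sources used here, so the depth of each library is unknown and no counting interval was possible. The build listed there, hg19, is human, whereas the bins span mouse chromosomes. Their last bins end 1.33 to 212 kb after the last gene of GRCm38.p6, and they were treated as GRCm38. Moving the genes by 1 Mb changed the genic excess from 0.376 to -0.010 points in DDD-seq. Genes came from the RefSeq table of that build (21883 protein-coding genes; all 241 listed symbols matched) and promoter sequences from RefSeq. The strand of the promoter sequences was checked by the motif TATAAA, which lay 24 to 38 bases before the start in 237 genes of the plus and 208 of the minus strand.

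Bins and gene bodies were compared with pandas 2.3.3 and scipy 1.17.1 under Python 3.11.15, without tests, since each side had 1 library. Only the loading of the bins and their gene annotation were run on a simulated library with a known offset and changed genes. Classes, windows, zeros, promoters and profiles were not covered by that run. Thresholds were 1 point for bins and 0.25 points for genes. Genes were named as members of lists with the highest level, the lowest level and the largest difference, and as the 10 genes of at least 10 bins, the 10 bins and the 5 windows of 1 Mb with the largest difference in each direction, and the 5 longest runs of zeros (6 with a tie). A few genes that this rule names are not reported here. The compared set, the gene lists and the thresholds were chosen with earlier results of these data known. Promoter CpG classes and the threshold for genes were chosen after the data were seen.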

Additional observations from a re-analysis of the deposited data

How the results depend on the processing

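Of 82 recalculations under other settings, 63 kept their direction and stayed within 1 SD over autosomes of the value given above (for the number of zeros, within 1.5 times). Settings for gene density, gene length, distance, chromosome position and gene bodies by bin filters, and medians, were chosen after seeing the data. Scaling ACE-seq so that both autosomal means are equal set the mean difference to 0 by construction, left -0.0010 points as the median over gene bodies and turned the difference to 0.0049 points in genes over 300 kb and 0.0077 points over 500 kb from a gene, against -0.053 and -0.033 as deposited. With distance to any gene of the table, the last was -0.091. With chromosomes X and Y, 12.6% of bins were past 1 point, the SD was 1.32 points, against 0.841, and 5949 bins were at 0 in one library only. In 100 kb windows 0.134% were past 1 point, and at thresholds of 0.5 and 2 points the share of bins was 36.8% and 1.12%. At these 2 thresholds the gap between the gene-poorest and the densest class was 20.2 and 1.43 percentage points (11.5 at 1 point), that between genes over 300 kb and under 10 kb 16.2 and 1.55, and that between bins over 500 kb and under 10 kb from a gene 17.3 and 1.54. The gap between the first 8 of 10 parts of the chromosomes and the last was 0.55 at 2 points. With genes of any type counted, the gap by density was 14.6. The table holds no coverage, so how far depth limits a bin's value could not be tested, and leaving out a replicate was not possible. No paired analysis was possible because each group has 1 library and the result comes from no test.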
